A study of Mus musculus with 22 samples.

Results

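The interleukin-6 (IL-6) family and its shared receptor chain gp130 were followed through 9 genes, namely the ligands Il6, Il11, Lif and Osm, the receptor chains Il6ra, Il6st, Lifr and Osmr, and the transcription factor Stat3. Members were all array probes with a RefSeq accession that maps to one of these symbols, which gave 12 probes of 27509 named RefSeq probes. Where a gene had several probes the brightest on average was taken as its main probe, and all 9 members passed the filter on dim probes and were tested among 22384 genes.

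The cells were macrophages grown from mouse bone marrow with the growth factor M-CSF (BMDM). They came from male C57BL/6 mice aged 10 to 14 weeks that were wildtype (wt), lacked the kinase MK2 (MK2-/-), or lacked MK2 together with its close relative MK3 (MK2/3-/-). Cultures stood for 360 min in medium or with 100 ng/ml lipopolysaccharide (LPS), a cell wall component of Gram-negative bacteria that is sensed by Toll-like receptor 4. A total of 6 groups resulted, with 3 arrays for wt under LPS and for MK2/3-/- in medium and 4 arrays for each other group. All groups had been grown with M-CSF, which according to the methods was withdrawn shortly before the experiments. No group lacked MK3 alone, and each genotype lay on a slide of its own, so that in direct comparisons of genotypes the slide cannot be told apart from the genotype.

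IL-6, IL-11, leukaemia inhibitory factor (LIF) and oncostatin M (OSM) all signal through gp130, the product of Il6st. Another receptor chain gives each ligand its specificity. IL-6 first binds the IL-6 receptor alpha chain, LIF recruits the LIF receptor, and OSM recruits the OSM receptor. The assembled receptors activate Janus kinases that phosphorylate STAT3, and STAT3 in turn induces Socs3, whose product blocks gp130. MK2 and MK3 act downstream of the stress kinase p38 and are known for their control of AU-rich cytokine mRNAs, among them Il6, through tristetraprolin (Zfp36).

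The series held a few irregularities that touch the values below. The macrophage markers were well above background on every array for 7 of 7 measured genes of the list of 8. Summed signal of the 7 fibroblast or other stromal cell markers ranged widely within groups, from 3312 to 107000 in wt medium, from 1571 to 27000 in MK2-/- medium and from 743 to 48340 in MK2/3-/- medium. Under LPS it ranged from 11970 to 62380 in wt, from 1657 to 19380 in MK2-/- and from 1393 to 30980 in MK2/3-/-. Of these markers, Pdgfra reached the well-above-background call on replicate 1 of wt medium and of wt LPS and on no other array. Summed signal of the 5 T cell markers was 17280 to 24030 in MK2/3-/- under LPS against 7001 to 7785 in wt and 7914 to 10450 in MK2-/-. Such a sum is weighted to the brightest marker. In MK2/3-/- under LPS, 3 of the 5 were well above background on every array and 1 on none. The part of other cell types in the genotype differences was not tested. In bulk samples fewer cells of a type and less RNA per cell cannot be told apart. On the replicate 3 arrays of MK2-/- BMDM, medium and LPS, Y-linked genes had a mean log2 signal of 2.33 and 2.07 against at least 6.86 on every other array, although the labels give male mice throughout. Mapkapk2, which encodes MK2, had a mean log2 signal of 11.9 ± 0.77 (SD, n = 4) in wt medium, 8.88 ± 0.13 (SD, n = 4) in MK2-/- medium and 8.44 ± 0.08 (SD, n = 3) in MK2/3-/- medium. It rose with LPS in every genotype, to 14.89 ± 0.55 (SD, n = 3), 11.61 ± 0.30 (SD, n = 4) and 11.02 ± 0.16 (SD, n = 4), so that the knockouts under LPS came near wt medium. In medium, Mapkapk3 had 13.13 ± 0.26 (SD, n = 4), 12.9 ± 0.35 (SD, n = 4) and 11.16 ± 0.23 (SD, n = 3). Under LPS, Mapkapk3, which encodes MK3, had 12.12 ± 0.16 (SD, n = 3) for wt arrays. It had 12.35 ± 0.30 (SD, n = 4) for MK2-/- and 8.0 ± 0.41 (SD, n = 4) for MK2/3-/- arrays. Whether these probes lie within the deleted parts is not given in the sources used here.

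Promoter windows, from 250 bases before to 50 bases after an annotated transcript start, were taken from RefSeq on the build GRCm38.p6, and 8 of the 9 members had an entry, with 10 windows in all. The windows of 3 genes that rose with LPS and of both chains of the IL-6 receptor, which fell, are printed 5′ to 3′ to show which letters of known LPS- and STAT3-linked motifs they hold. Il6 lies at chr5:30012864-30013163 on the plus strand, Lif at chr11:4257318-4257617 (plus), Stat3 at chr11:100939491-100939790 (minus), Il6ra at chr3:89913147-89913446 (minus) and Il6st at chr13:112463820-112464119 (plus). Capitals mark matches, on either strand, to NF-kB GGNNNTTCC, AP-1 TGANTCA, CRE TGACGTCA, C/EBP TTNNGCAA, STAT TTCNNNGAA, or to TATAAA as found in TATA boxes.
Il6: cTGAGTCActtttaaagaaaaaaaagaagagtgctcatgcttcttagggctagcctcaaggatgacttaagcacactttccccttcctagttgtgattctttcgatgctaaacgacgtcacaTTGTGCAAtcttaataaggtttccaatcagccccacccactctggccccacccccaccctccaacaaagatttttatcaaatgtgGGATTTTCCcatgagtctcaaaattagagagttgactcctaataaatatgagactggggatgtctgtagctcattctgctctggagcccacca
Lif: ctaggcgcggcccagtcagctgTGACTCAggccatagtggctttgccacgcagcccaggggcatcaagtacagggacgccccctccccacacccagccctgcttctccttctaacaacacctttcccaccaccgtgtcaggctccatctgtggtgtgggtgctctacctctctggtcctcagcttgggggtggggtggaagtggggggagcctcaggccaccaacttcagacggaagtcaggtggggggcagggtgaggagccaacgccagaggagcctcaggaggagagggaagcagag
Stat3: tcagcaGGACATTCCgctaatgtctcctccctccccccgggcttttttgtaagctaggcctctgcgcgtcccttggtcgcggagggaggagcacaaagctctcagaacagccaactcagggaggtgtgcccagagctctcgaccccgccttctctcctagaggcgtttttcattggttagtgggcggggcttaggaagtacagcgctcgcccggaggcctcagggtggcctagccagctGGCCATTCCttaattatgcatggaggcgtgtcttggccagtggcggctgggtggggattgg
Il6ra: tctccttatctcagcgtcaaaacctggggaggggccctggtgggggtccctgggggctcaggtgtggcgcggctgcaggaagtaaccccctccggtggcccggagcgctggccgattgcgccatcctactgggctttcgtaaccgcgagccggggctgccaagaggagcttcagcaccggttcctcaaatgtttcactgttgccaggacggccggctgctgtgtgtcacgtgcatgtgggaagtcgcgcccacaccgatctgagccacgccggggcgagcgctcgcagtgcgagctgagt
Il6st: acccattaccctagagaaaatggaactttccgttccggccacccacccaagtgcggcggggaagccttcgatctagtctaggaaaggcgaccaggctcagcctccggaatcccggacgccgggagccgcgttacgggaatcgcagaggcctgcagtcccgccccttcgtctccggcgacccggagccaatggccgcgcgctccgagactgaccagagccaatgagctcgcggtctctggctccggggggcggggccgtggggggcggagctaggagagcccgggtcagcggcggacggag
The Il6 window held GGATTTTCC from base -43, TTGTGCAA from base -128 and TGAGTCA from base -249 relative to the start, a match each to the NF-kB, C/EBP and AP-1 letters. The Stat3 window held GGACATTCC at -244 and GGCCATTCC at -11. The Lif window held TGACTCA at -228. Of all 32851 windows of this length, 18.5% held the NF-kB letters, 7.81% the AP-1 letters and 10.8% the C/EBP letters. AP-1 letters were also present in 1 window each of Il11 and Osmr, which made 4 of the 10 member windows. No member window held the STAT, CRE or TATA letters as written, which occurred in 8.3%, 1.79% and 13.6% of all windows. The windows of Il6ra and Il6st held no match to any of the 6 motifs. A match is a description of letters and no evidence of binding.

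**Figure D1:**
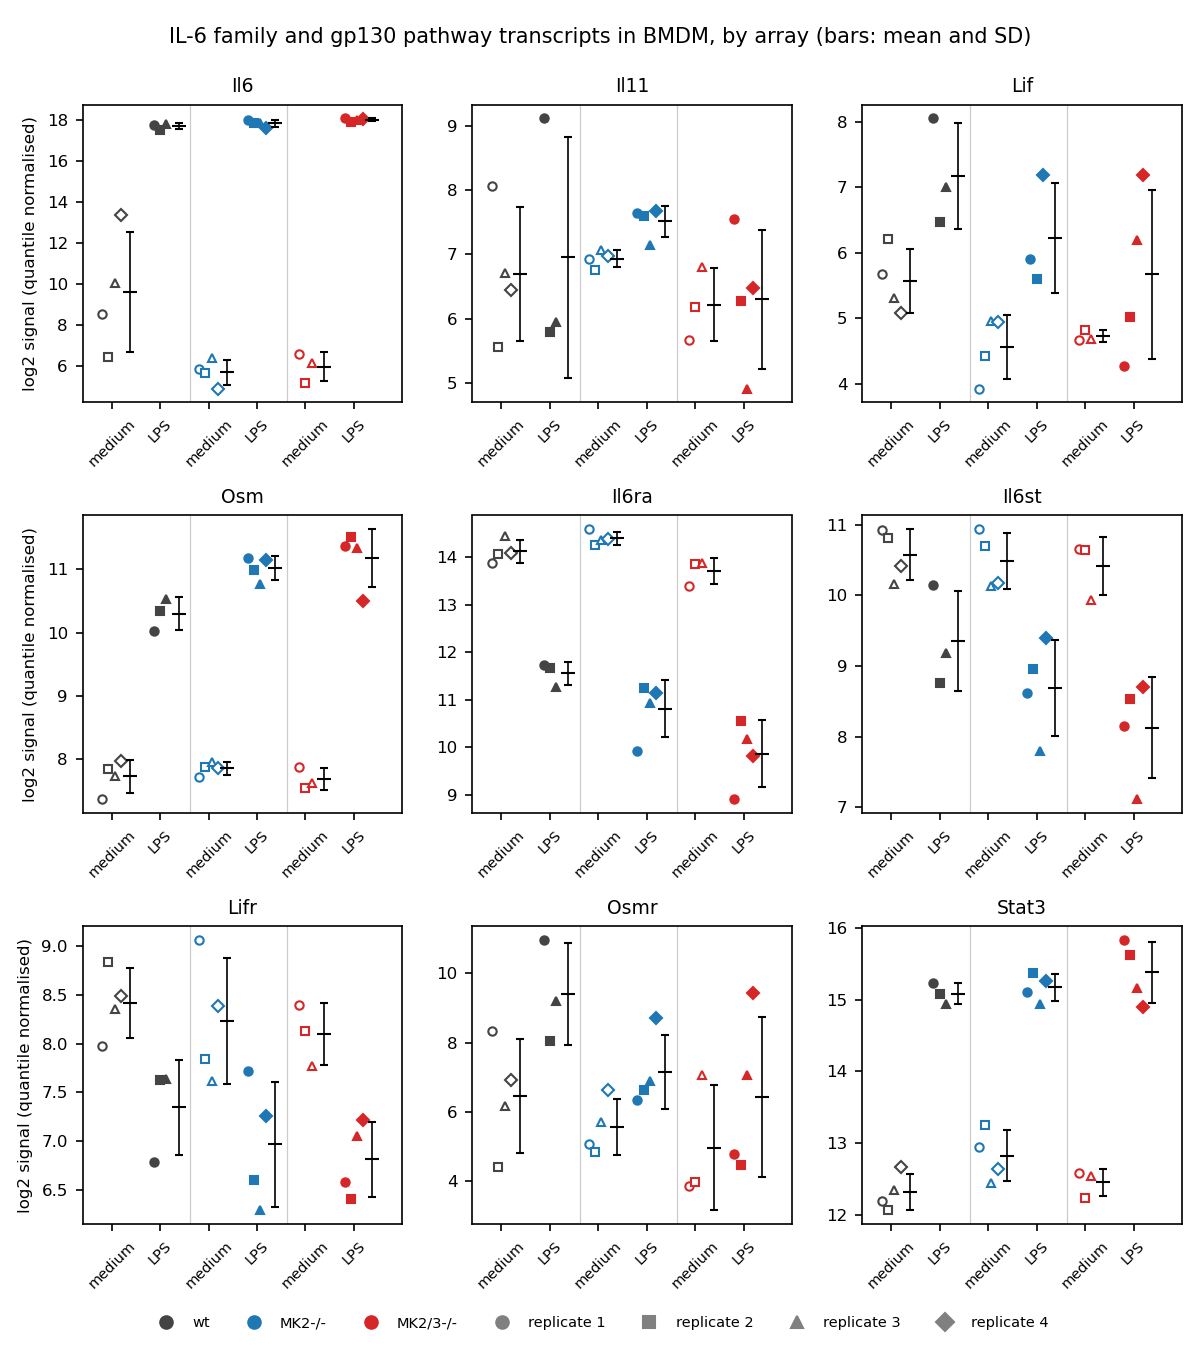
Quantile-normalised log2 signal (y axis) of the main probe of each of the 9 genes on every array, with medium (open) and LPS (filled) arrays of wt (dark grey), MK2-/- (blue) and MK2/3-/- (red) along the x axis, one symbol per replicate number, and black bars for the mean and SD. Il6, Osm and Stat3 were higher on every LPS array than on every medium array, and Il6ra was lower on every LPS array. Within genotypes, Osmr overlapped between treatments in each, and Il11 in wt and MK2/3-/-.

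LPS changed the transcripts of most of these genes in wt BMDM. Il6, Osm, Stat3, Osmr and Lif rose, Il6ra, Il6st and Lifr fell, and Il11 did not pass the test. Thus 8 of 9 members had an adjusted p (Benjamini-Hochberg, limma) under 0.05 and were called, while 42.1% of all genes tested were called in this comparison. In MK2-/- BMDM 7 members were called (4 higher, 3 lower) against 44.6% of all genes. In MK2/3-/- BMDM 6 were called (3 higher, 3 lower) against 48.2% of all genes. The median log2 difference of the 9 members was 1.6 in wt, 1.58 in MK2-/- and 0.94 in MK2/3-/-, where that of all genes was -0.04, -0.01 and 0.01. When each array was scaled to its 75th percentile instead, the median of all genes moved to 0.30, 0.28 and 0.29, and every called member kept its direction.

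**Figure D2:**
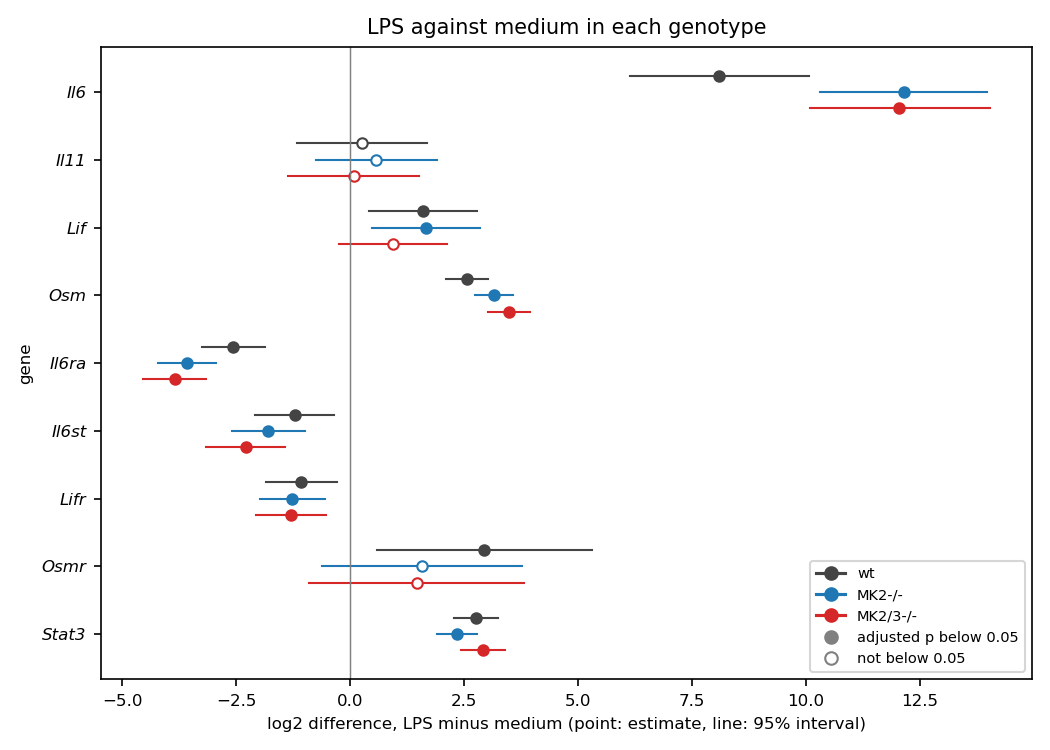
Log2 difference between LPS and medium (x axis) for each gene (y axis) in wt, MK2-/- and MK2/3-/- BMDM, as limma estimates (points) with 95% confidence intervals (lines). Filled points passed the adjusted threshold, and Il6 lay farthest to the right at 8.11, 12.15 and 12.06.

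Il6 (NM_031168), the founding ligand of the family and a main acute-phase cytokine, had log2 signals of 17.74, 17.52 and 17.81 on the wt LPS arrays. In wt medium it gave 8.52, 6.41, 10.02 and 13.36, so that replicate 4 of this group lay well above the others, yet below all LPS arrays. The MK2-/- arrays gave 5.85, 5.63, 6.36 and 4.88 in medium and 18.02, 17.83, 17.87 and 17.60 under LPS. Signals on LPS arrays were thus tight in both genotypes, whereas medium signals were lower and tighter without MK2. MK2/3-/- arrays gave 6.55, 5.16 and 6.13 in medium and 18.08, 17.92, 17.98 and 18.06 under LPS. The rise was 8.11 on the log2 scale in wt (SE 0.94, adjusted p 1.35e-06), 12.15 in MK2-/- (SE 0.87, adjusted p 1.49e-09) and 12.06 in MK2/3-/- (SE 0.94, adjusted p 4.95e-09). Without replicate 4 of wt medium the rise in wt was 9.37 (adjusted p 1.53e-09). On LPS arrays Il6 ranked between 43 and 149 among 55681 probes by signal, where quantile normalisation leaves little room for a difference, and no spot was marked as saturated.

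Osm (NM_001013365), the ligand of the OSM receptor made by activated myeloid cells, had log2 signals of 7.37, 7.85, 7.73 and 7.98 in wt medium and of 10.02, 10.34 and 10.53 in wt under LPS. The MK2-/- arrays gave 7.72, 7.89, 7.96 and 7.87 in medium and 11.18, 10.99, 10.76 and 11.14 under LPS. In MK2/3-/- BMDM the signals were 7.88, 7.55 and 7.63 in medium and 11.36, 11.50, 11.34 and 10.50 under LPS. Medium arrays of the 3 genotypes overlapped, and LPS arrays were apart from them in each genotype. Osm rose by 2.57 in wt (SE 0.22, adjusted p 2.65e-08), by 3.16 in MK2-/- (SE 0.20, adjusted p 3.37e-10) and by 3.49 in MK2/3-/- (SE 0.22, adjusted p 3.49e-10).

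Lif (NM_008501), which maintains pluripotent stem cells in culture and acts on many tissues, was measured near the lower end of the range. It gave 5.68, 6.21, 5.31 and 5.08 in wt medium and 8.05, 6.47 and 7.0 in wt under LPS. MK2-/- arrays gave 3.92 (not well above background), 4.43, 4.96 and 4.94 in medium and 5.90, 5.59 and 7.18 under LPS, where the spot of replicate 3 was marked as an outlier and left out. LPS arrays lay above medium arrays without overlap in these genotypes. For MK2/3-/- BMDM the values were 4.67, 4.83 and 4.68 in medium and 4.28, 5.02, 6.20 and 7.19 under LPS, and the treatments overlapped. Lif rose by 1.60 in wt (SE 0.56, adjusted p 0.0281) and by 1.66 in MK2-/- (SE 0.56, adjusted p 0.0213), and the difference in MK2/3-/- was 0.94 (SE 0.56, adjusted p 0.183). The call in wt ended without wt LPS replicate 1 or 3 or without wt medium replicate 3 or 4 (1.17 to 1.69, adjusted p 0.0541 to 0.14), and that in MK2-/- without LPS replicate 4 or medium replicate 1 (1.19 to 1.45, adjusted p 0.0636 to 0.135). Background correction by normexp gave 0.54 in MK2-/- (adjusted p 0.113). The wt call also ended with the authors' deposited log2 values (1.61, adjusted p 0.0571) and with outlier spots kept (1.60, adjusted p 0.0582). By the methods' t-test after adjustment, neither call was made (adjusted p 0.0531 in wt and 0.0516 in MK2-/-).

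Il11 (NM_008350), a cytokine better known from stromal and epithelial cells, was not called with LPS in any genotype. Its log2 signals were 8.06, 5.56, 6.71 and 6.44 in wt medium and 9.11, 5.80 and 5.95 in wt under LPS, with replicate 1 highest in each group. MK2-/- arrays gave 6.94, 6.75, 7.08 and 6.98 in medium and 7.64, 7.60, 7.15 and 7.67 under LPS. MK2/3-/- arrays gave 5.68, 6.18 and 6.81 in medium and 7.55, 6.27, 4.92 and 6.48 under LPS. The LPS differences were 0.26 (95% interval -1.17 to 1.70) in wt, 0.58 (-0.75 to 1.91) in MK2-/- and 0.08 (-1.35 to 1.52) in MK2/3-/-. In MK2-/- BMDM, where the arrays of the groups did not overlap, the methods' t-test and a fit of only the groups compared passed the threshold.

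Il6ra (NM_010559), which encodes the ligand-binding chain for IL-6, fell in all genotypes. In wt it went from 13.89, 14.06, 14.45 and 14.09 in medium to 11.73, 11.67 and 11.28 under LPS. MK2-/- arrays gave 14.59, 14.25, 14.37 and 14.38 in medium and 9.93, 11.25, 10.94 and 11.15 under LPS. MK2/3-/- arrays gave 13.40, 13.85 and 13.88 in medium and 8.90, 10.55, 10.18 and 9.82 under LPS. No LPS array reached the lowest medium array in any genotype. Il6ra fell by 2.56 in wt (SE 0.33, adjusted p 4.35e-06), by 3.58 in MK2-/- (SE 0.30, adjusted p 1.26e-08) and by 3.85 in MK2/3-/- (SE 0.33, adjusted p 1.51e-08), that is 5.90-, 12.0- and 14.4-fold.

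Il6st (NM_010560), which encodes gp130 itself, fell less. Wt arrays gave 10.93, 10.81, 10.15 and 10.41 in medium and 10.14, 8.76 and 9.18 under LPS, so that the highest LPS array lay just below the lowest medium array. MK2-/- arrays gave 10.94, 10.69, 10.13 and 10.17 in medium and 8.62, 8.96, 7.79 and 9.39 under LPS. MK2/3-/- arrays gave 10.65, 10.65 and 9.93 in medium and 8.16, 8.53, 7.11 and 8.70 under LPS, and in both knockouts the treatments were apart. Il6st fell by 1.22 in wt (SE 0.41, adjusted p 0.0235), by 1.79 in MK2-/- (SE 0.38, adjusted p 0.000691) and by 2.29 in MK2/3-/- (SE 0.41, adjusted p 0.00013). The call in wt ended without wt LPS replicate 2 or 3 or without wt medium replicate 1 or 2 (-1.14 to -0.92, adjusted p 0.0542 to 0.136).

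Lifr, which encodes the receptor chain that LIF and OSM can share with gp130, was measured by 3 probes that did not behave alike. The main probe A_55_P2159264 (NM_001113386) gave 7.97, 8.84, 8.36 and 8.49 in wt medium and 6.79, 7.62 and 7.64 in wt under LPS. On MK2-/- arrays it gave 9.07, 7.85, 7.62 and 8.39 in medium and 7.72, 6.60, 6.29 and 7.26 under LPS. On MK2/3-/- arrays it gave 8.40, 8.13 and 7.77 in medium and 6.58, 6.40, 7.05 and 7.22 under LPS. On this probe the treatments overlapped only in MK2-/-, between the lowest medium and the highest LPS array. Lifr fell by 1.07 in wt (SE 0.37, adjusted p 0.0258), by 1.27 in MK2-/- (SE 0.34, adjusted p 0.00488) and by 1.29 in MK2/3-/- (SE 0.37, adjusted p 0.00691). The call in wt ended without wt LPS replicate 1 or wt medium replicate 2 (-0.93 to -0.79, adjusted p 0.0723 to 0.131). Another probe, A_55_P2159259 (NM_013584), was called lower under LPS in each genotype (adjusted p over all 28103 probes 3.97e-05 in wt, 5.62e-08 in MK2-/- and 4.5e-07 in MK2/3-/-). Its medium means were 8.63 ± 0.34 (SD, n = 4), 8.03 ± 0.90 (SD, n = 4) and 8.72 ± 0.42 (SD, n = 3) in this order. Under LPS it was well above background on 2 of 3 wt, 1 of 4 MK2-/- and 1 of 4 MK2/3-/- arrays, so that the depth of its fall was not measured in the knockouts. The remaining probe, A_51_P113182, carries the same accession NM_013584 and gave differences of -0.69, -0.35 and 0.08, none of which passed (adjusted p 0.328, 0.604 and 0.924).

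**Figure D3:**
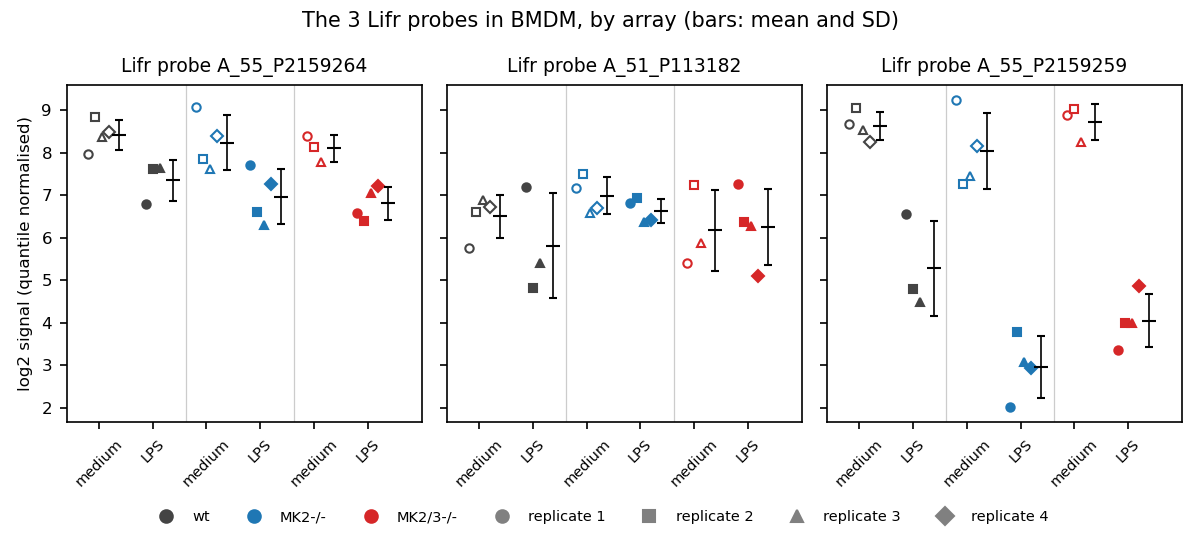
Quantile-normalised log2 signal (y axis) of the 3 Lifr probes on every array in medium (open) and under LPS (filled), by genotype, with replicate numbers as symbols and bars for the mean and SD. The probe A_55_P2159259 was lower under LPS in each genotype, mostly at signals not well above background in the knockouts, the main probe fell by 1.07 to 1.29, and the probe A_51_P113182 overlapped between treatments.

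Osmr (NM_011019), the receptor chain specific for OSM and typical of fibroblasts and other stromal cells, varied widely between arrays of a group. Wt arrays gave 8.34, 4.40 (not well above background), 6.18 and 6.93 in medium and 10.97, 8.06 and 9.20 under LPS. MK2-/- arrays gave 5.08, 4.83, 5.70 and 6.64 in medium and 6.33, 6.62, 6.90 and 8.71 under LPS. MK2/3-/- arrays gave 3.87, 3.98 and 7.06 in medium and 4.80, 4.45 (not well above background), 7.06 and 9.43 under LPS. The treatments overlapped in every genotype, and SDs reached 2.31 (MK2/3-/- under LPS, n = 4). Osmr rose by 2.95 in wt (SE 1.13, adjusted p 0.0425), and the differences of 1.58 (SE 1.04, adjusted p 0.241) and 1.46 (SE 1.13, adjusted p 0.311) in MK2-/- and MK2/3-/- did not pass. The call in wt ended without wt LPS replicate 1 or 3, without wt medium replicate 2, 3 or 4 (2.17 to 3.10, adjusted p 0.0549 to 0.179), and without both MK2-/- arrays of low Y-linked signal (adjusted p 0.0572).

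Within every group, the array with the highest Osmr signal also had the highest signal of the stromal marker Col1a1. No other of the 7 listed stromal markers was set against Osmr here. Pdgfra from that list was well above background only on replicate 1 of wt medium and of wt LPS, and so on none of the knockout arrays. Col1a1, a fibrillar collagen chain, had log2 signals of 14.99, 9.59, 12.07 and 13.00 in wt medium and 13.56, 11.59 and 12.50 in wt under LPS. Replicate 1 was highest for Osmr and Col1a1 in both groups. In MK2-/- BMDM Col1a1 gave 8.20, 6.72, 10.43 and 12.68 in medium and 7.26, 6.90, 10.23 and 12.10 under LPS. For MK2/3-/- BMDM it gave 4.89, 7.85 and 13.83 in medium and 5.78, 7.26, 10.60 and 13.16 under LPS. Replicate 4 was highest for Osmr and Col1a1 in MK2-/- medium, MK2-/- LPS and MK2/3-/- LPS, and replicate 3 in MK2/3-/- medium. The part of stromal cells in the Osmr values was not tested. Arrays of a genotype that carry the same letter in their array names had mice of the same age, but were not shown to be paired. Between such arrays Osmr was higher under LPS in 10 of 10 pairs, by 0.47 to 2.63. Il6, Osm and Stat3 were also higher in 10 of 10, Lif in 8 of 9, Il11 in 7 of 10, and Il6ra, Il6st and Lifr in 0 of 10. No share over all genes is given.

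**Figure D4:**
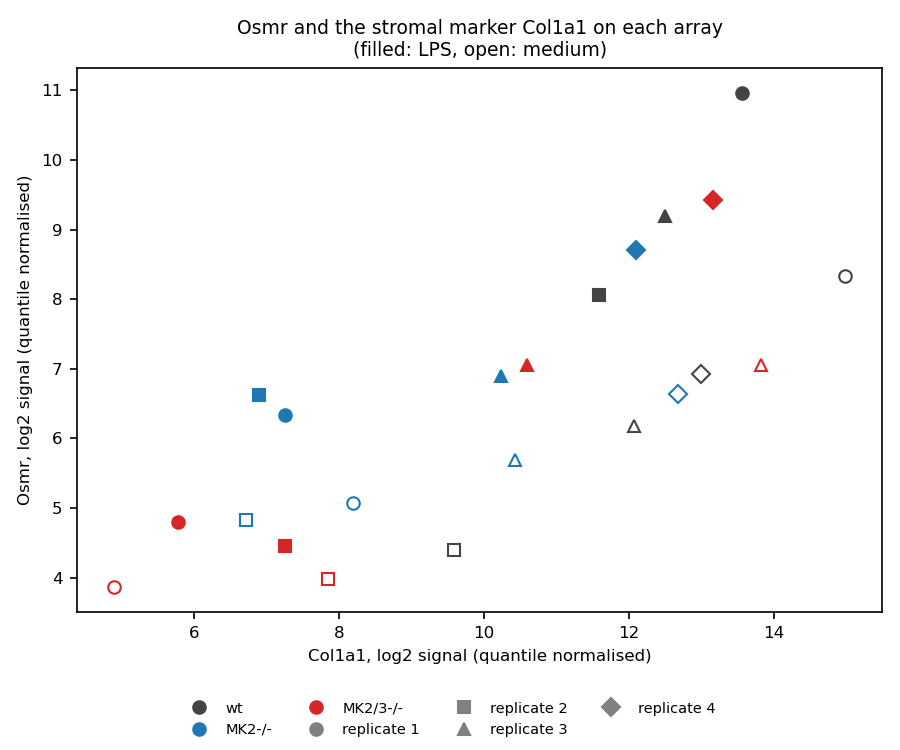
Log2 signal of Osmr (y axis) against that of the stromal marker Col1a1 (x axis) on each of the 22 arrays, with LPS arrays filled, medium arrays open, colours for genotype and symbols for replicate number. Osmr was highest at 10.97 on wt LPS replicate 1, and in each group the array highest in Col1a1 was also highest in Osmr.

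Stat3, the transcription factor that gp130 receptors activate, rose in all 3 genotypes. Its main probe A_51_P201480 (NM_213659), printed 10 times on the array, gave 12.20, 12.08, 12.34 and 12.67 in wt medium and 15.23, 15.08 and 14.94 in wt under LPS. MK2-/- arrays gave 12.95, 13.26, 12.45 and 12.64 in medium and 15.11, 15.38, 14.94 and 15.26 under LPS. MK2/3-/- arrays gave 12.59, 12.24 and 12.54 in medium and 15.84, 15.63, 15.17 and 14.90 under LPS. The treatments were far apart everywhere. Stat3 rose by 2.76 in wt (SE 0.23, adjusted p 2.08e-08), by 2.35 in MK2-/- (SE 0.21, adjusted p 2.93e-08) and by 2.93 in MK2/3-/- (SE 0.23, adjusted p 5.27e-09). The other Stat3 probe, A_55_P1991219 (NM_011486), rose by 2.67, 2.94 and 3.51 in the same order (adjusted p over all probes 4.03e-08, 1.99e-09 and 6.94e-10).

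Next, genotypes were compared under LPS to ask which of these transcripts depend on MK2, or on MK2 and MK3. Osm was higher in both knockouts than in wt, and Il6ra and Il6st were lower in MK2/3-/- BMDM. On their main probes, Il6, Stat3, Lifr and Il11 did not pass the test in any pair. Another Lifr probe was called between MK2-/- and wt. Against wt, 1 of 9 members was called in MK2-/- (Osm) where 11.6% of all genes were called, and 3 of 9 in MK2/3-/- (Osm, Il6ra, Il6st) where 23.6% were called. Between MK2/3-/- and MK2-/-, 1 of 9 was called (Il6ra) where 13.5% of all genes were called. Both comparisons with wt share the 3 wt LPS arrays.

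**Figure D5:**
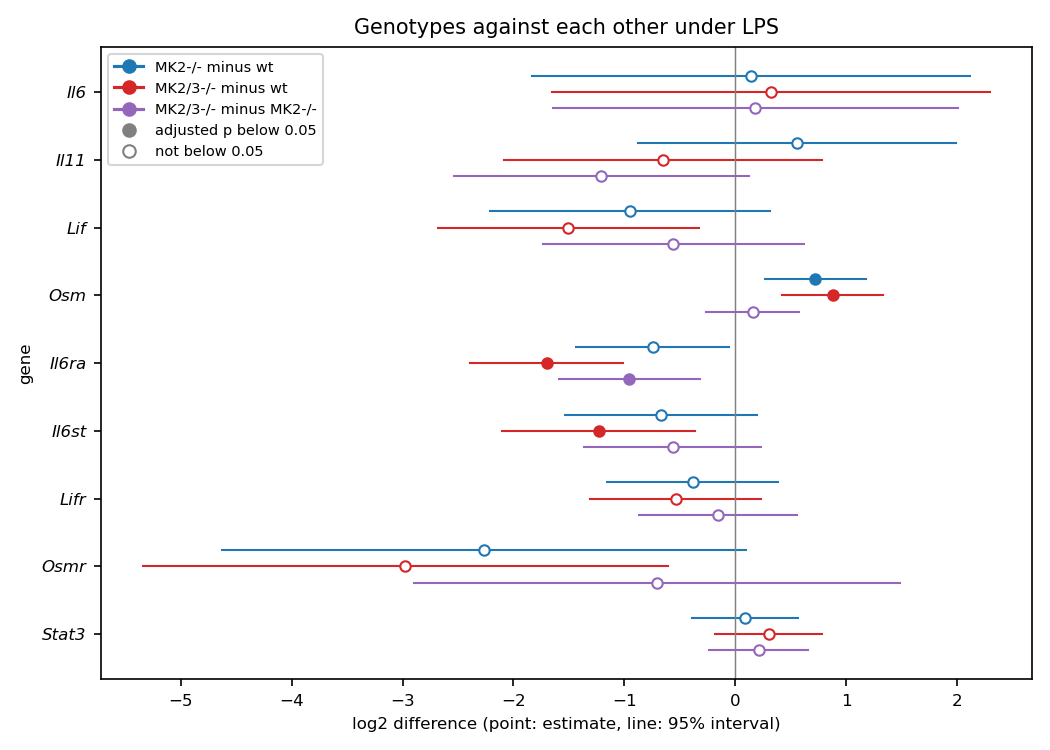
Log2 difference between genotypes under LPS (x axis) for each gene (y axis), as limma estimates (points) with 95% confidence intervals (lines), for MK2-/- minus wt (blue), MK2/3-/- minus wt (red) and MK2/3-/- minus MK2-/- (purple). Filled points passed the adjusted threshold, which were Osm at 0.72 and 0.88, Il6ra at -1.70 and -0.96, and Il6st at -1.23.

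Osm exceeded wt by 0.72 on the log2 scale in MK2-/- under LPS (1.65-fold, SE 0.22, adjusted p 0.0398) and by 0.88 in MK2/3-/- (1.84-fold, SE 0.22, adjusted p 0.00735). All 4 MK2-/- arrays lay above all 3 wt arrays, as did 3 of 4 MK2/3-/- arrays, with replicate 4 at 10.50 just below the highest wt array at 10.53. Without that array the MK2/3-/- difference was 1.11 (adjusted p 0.000407). The MK2/3-/- call ended with only the groups compared (adjusted p 0.11) and by the methods' t-test after adjustment (adjusted p 0.157). The MK2-/- call ended when any of the 3 wt LPS arrays or MK2-/- LPS replicate 1, 2 or 4 was left out (0.58 to 0.84, adjusted p 0.0527 to 0.15), and also with 75th percentile scaling (0.56, adjusted p 0.0991). It ended too with only the groups compared (adjusted p 0.068) and by the methods' t-test after adjustment (adjusted p 0.0868). The knockouts differed from each other by 0.16 (95% interval -0.27 to 0.58).

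Il6ra under LPS was lower than in wt by 1.70 in MK2/3-/- (3.25-fold, SE 0.33, adjusted p 0.00144), and every MK2/3-/- array lay below every wt array. That call ended by the methods' t-test after adjustment (adjusted p 0.107). In MK2-/- the difference from wt was -0.74 (SE 0.33, adjusted p 0.138), again with no overlap between the arrays. MK2/3-/- lay 0.96 below MK2-/- (SE 0.30, adjusted p 0.0436). This last call was marginal, since leaving out any of 14 arrays ended it (adjusted p 0.0502 to 0.134), as did leaving out both MK2-/- arrays of low Y-linked signal (-0.92, adjusted p 0.0938). Those 14 arrays were wt LPS replicate 2, wt medium replicates 1, 2 and 4, MK2-/- LPS replicates 2, 3 and 4, MK2-/- medium replicates 1, 3 and 4, MK2/3-/- LPS replicates 1 and 4, and MK2/3-/- medium replicates 2 and 3. The estimate without 1 of them ran from -0.96 to -0.64. Il6st was lower in MK2/3-/- than in wt by 1.23 (2.35-fold, SE 0.41, adjusted p 0.0378), with no overlap between the arrays. The Il6st call ended without wt LPS replicate 1 or 3 or MK2/3-/- LPS replicate 1 or 3 (-1.32 to -0.84, adjusted p 0.0649 to 0.206), with array weights (-0.89, adjusted p 0.0703), with only the groups compared (adjusted p 0.144) and by the methods' t-test before (p 0.0729) and after adjustment (adjusted p 0.232).

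Il6 under LPS differed from wt by 0.14 in MK2-/- (95% interval -1.84 to 2.11) and by 0.32 in MK2/3-/- (-1.66 to 2.30), although all 4 MK2/3-/- arrays lay above the wt arrays. These intervals draw on the spread of all 6 groups, including wt medium with an SD of 2.93. On the LPS arrays the SDs were 0.15 in wt, 0.17 in MK2-/- and 0.07 in MK2/3-/-. The MK2/3-/- difference passed by the methods' t-test before adjustment and under no other setting. Stat3 differed by 0.09 (-0.39 to 0.57) and 0.30 (-0.18 to 0.78). Lif was 1.50 below wt in MK2/3-/- (SE 0.56, adjusted p 0.0604) and Osmr 2.97 below (SE 1.13, adjusted p 0.0634). Without MK2/3-/- LPS replicate 4, the array highest in Lif, Osmr and Col1a1 of its group, both passed, Lif at -2.01 (adjusted p 0.00875) and Osmr at -3.97 (adjusted p 0.0102), which made 5 members called. The main Lifr probe differed from wt by -0.38 in MK2-/- (95% interval -1.16 to 0.39). The Lifr probe A_55_P2159259 was called lower in MK2-/- than in wt (-2.32, limma adjusted p over all probes 0.0105). It was well above background on 2 of 3 wt and 1 of 4 MK2-/- arrays, so the size of this difference was not measured. The probe A_51_P113182 gave 0.82 (adjusted p 0.316).

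In medium, MK2-/- BMDM had less Il6 than wt by 3.90 on the log2 scale (14.9-fold, SE 0.87, adjusted p 0.0123). This was 1 of 9 members called, where 8.82% of all genes were called. The highest MK2-/- array, at 6.36, lay just below the lowest wt array, at 6.41, while wt ran up to 13.36. The call ended with only the groups compared (adjusted p 0.0966) and by the methods' t-test after adjustment (adjusted p 0.177). The SE of this difference draws on the spread of all 6 groups, while the SD was 2.93 in wt medium and 0.62 in MK2-/- medium. The difference was -2.64 without wt medium replicate 4 (adjusted p 0.0163). For MK2/3-/- against wt it was -3.64 (SE 0.94, adjusted p 0.0522), and it passed with array weights (-4.32, adjusted p 0.00899). No member was called by limma between MK2/3-/- and wt in medium, where 2.02% of all genes were called, or between MK2/3-/- and MK2-/-, where 2.82% were called, and 1 and 0 members had an unadjusted p below 0.05. The methods' t-test at its unadjusted threshold gave 1 member in each of these pairs and none after adjustment. Lif had a difference of -1.01 (SE 0.52, adjusted p 0.23) in MK2-/- against wt, with no overlap between the arrays. Stat3 had one of 0.50 (SE 0.21, adjusted p 0.143), and its other probe one of -0.48 (SE 0.22).

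Whether the LPS response itself differed between genotypes was tested as an interaction, in which an additive slide effect cancels. No member was called by limma in any of the 3 pairs. All-gene shares were 0% for MK2-/- against wt, 0.679% for MK2/3-/- against wt and 0.067% for MK2/3-/- against MK2-/-, and 2, 3 and 0 members had an unadjusted p below 0.05. The response of Il6 was larger by 4.04 in MK2-/- (SE 1.28, unadjusted p 0.00542) and by 3.95 in MK2/3-/- (SE 1.33, unadjusted p 0.00803) than in wt. These differences are made up of -3.90 and -3.64 on the medium arrays and 0.14 and 0.32 on the LPS arrays. Without wt medium replicate 4 they were 2.78 and 2.69 (adjusted p 0.444 and 0.159). The fall of Il6ra was deeper by 1.02 in MK2-/- (SE 0.45, unadjusted p 0.0346) and by 1.29 in MK2/3-/- (SE 0.46, unadjusted p 0.0122). The rise of Osm was larger by 0.92 in MK2/3-/- (SE 0.31, unadjusted p 0.0075, adjusted p 0.186). It was 1.15 and passed (adjusted p 0.0211) without MK2/3-/- LPS replicate 4.

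Further genes of the pathway were followed in lists, whose counts stand against the shares of all genes called, 42.1% with LPS in wt and, under LPS, 11.6% for MK2-/- against wt, 23.6% for MK2/3-/- against wt and 13.5% between the knockouts. Among 11 tested of 13 other ligands and receptors of the family, 4 rose and 2 fell with LPS in wt. Il27, the subunit that makes IL-27 together with Ebi3, rose by 5.76 (SE 0.33, adjusted p 4.44e-10). Il12a, whose product also joins Ebi3 to form IL-35, was not well above background on any medium array and was at least 3.56-fold higher under LPS in wt (adjusted p 2.73e-05). Il11ra1, the IL-11 receptor chain, fell by 1.63 (SE 0.23), and Ctf1, encoding cardiotrophin-1, by 1.14 (SE 0.25). Under LPS, MK2/3-/- exceeded wt in Il12a by 3.17 (SE 0.54, adjusted p 0.000606), in Clcf1, a ligand of the ciliary neurotrophic factor receptor, by 1.30 (SE 0.39, adjusted p 0.0233), and in Il31ra by 1.41 (SE 0.49, adjusted p 0.0432). MK2/3-/- also exceeded MK2-/- in Il12a (2.11), Il31ra (1.92) and Il27 (1.40), and no gene of the list was called between MK2-/- and wt.

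Of 11 kinases, STATs and shedding enzymes, 4 rose and 2 fell with LPS in wt. Jak2, a Janus kinase that binds gp130, rose by 3.86 (SE 0.23, adjusted p 5.87e-10) and Stat5a by 3.01 (SE 0.28, adjusted p 6.87e-08). Adam10, a protease that can shed the IL-6 receptor, fell by 1.89 (SE 0.24), and the adaptor Grb2 by 0.74 (SE 0.20) on its main probe, whereas its probe of largest rise gave 0.40. Under LPS the docking protein Gab1 was lower in MK2/3-/- than in wt by 2.94 (SE 0.52, adjusted p 0.000724) and than in MK2-/- by 2.43 (SE 0.48, adjusted p 0.00233). Adam17, the other IL-6 receptor sheddase, was higher in MK2/3-/- than in wt by 0.89 (SE 0.27, adjusted p 0.024).

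Of 11 inhibitors, 6 rose and 1 fell with LPS in wt. Socs3 rose by 6.69 (SE 0.54, adjusted p 1.56e-08) and Usp18, a brake on interferon signalling, by 6.35 (SE 0.53, adjusted p 2.07e-08). Pias3, an inhibitor of STAT3, fell by 2.20 (SE 0.44, adjusted p 0.000484). Only 1 of 3 wt LPS arrays was well above background for it, so the depth of this fall is uncertain. Under LPS, Socs3 passed in no pair of genotypes. Mean log2 signals were 17.58 for wt arrays, 17.1 for MK2-/- arrays and 16.97 for MK2/3-/- arrays. The SDs of these LPS groups were small, at 0.046, 0.182 and 0.031 in the same order. The limma test pools the spread of all 6 groups, and wt medium had an SD of 1.63. A lack of difference in Socs3 therefore cannot be concluded from that test. The paper places Socs3 in its group I, genes whose LPS-induced transcript is lower without MK2. Pias3 was not well above background on any LPS array of either knockout and was at least 1.16-fold lower in MK2/3-/- (adjusted p 0.0369 against wt), with 1 of 3 wt arrays well above background. That call ended with 75th percentile scaling (-0.38, adjusted p 0.396) and with normexp (-0.20, adjusted p 0.341). The phosphatase gene Ptprt was lower in MK2/3-/- than in wt by 1.82 (SE 0.54, adjusted p 0.0207) and than in MK2-/- by 1.99 (SE 0.50, adjusted p 0.0129). It was well above background on 2 of 4 MK2/3-/- LPS arrays, so these sizes are uncertain. Another of its probes gave 0.52 against wt (limma adjusted p 0.459) and -0.18 against MK2-/- (adjusted p 0.844). The call against wt also ended with 75th percentile scaling (-1.06, adjusted p 0.189), with array weights (-1.18, adjusted p 0.0635) and by the methods' t-test before adjustment (p 0.101), and that against MK2-/- with 75th percentile scaling (adjusted p 0.054).

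Of 24 genes known as STAT3 targets, 16 rose and 3 fell with LPS in wt, and 18 and 14 rose in MK2-/- and MK2/3-/-, with 3 falls each. Socs3 and the anti-inflammatory cytokine Il10 rose most in wt, Il10 by 6.52 (SE 0.48, adjusted p 4.56e-09). Birc5, a survival and mitosis gene, fell by 3.17 (SE 0.77) and Fos by 2.11 (SE 0.32). Under LPS, 8 targets were lower and 1 higher in MK2/3-/- than in wt, 2 were lower in MK2-/-, and 5 were lower in MK2/3-/- than in MK2-/-, where 23.6%, 11.6% and 13.5% of all genes were called in either direction. The acute-phase gene Hp was lower in MK2/3-/- than in wt by 3.28 (SE 0.56, adjusted p 0.000571), the IL-4 receptor chain Il4ra by 2.93 (SE 0.32, adjusted p 3.22e-05), Il10 by 2.32 (SE 0.48, adjusted p 0.00218) and Cebpd by 2.25 (SE 0.33, adjusted p 0.000166). Lcn2 (-2.04), Vegfa (-1.51), Bcl3 (-1.39) and Cebpb (-1.10) were lower too. Mcl1, a survival gene, was higher by 0.59 (SE 0.17, adjusted p 0.0172), and by 0.35 under 75th percentile scaling (adjusted p 0.146). Il10 (-1.55) and Il4ra (-1.36) were the targets lower in MK2-/- than in wt. In the interaction test, the LPS response was smaller in MK2/3-/- than in wt for Cebpd by 2.59 (SE 0.46, adjusted p 0.0229) and for Il4ra by 2.38 (SE 0.45, adjusted p 0.0284). The Cebpd call ended without MK2/3-/- medium replicate 1 or 2 (adjusted p 0.0674 to 0.0756) and under 75th percentile scaling (-2.45, adjusted p 0.0667), and the Il4ra call without wt LPS replicate 1, wt medium replicate 1 or 2, MK2/3-/- LPS replicate 1 or any MK2/3-/- medium array (adjusted p 0.0545 to 0.0778). With only the groups compared both ended (adjusted p 0.0554 and 0.0681). Many of these genes are also direct targets of LPS signalling, and their dependence on gp130 was not measured here.

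Of 12 regulators of Il6 mRNA decay, 7 rose and 3 fell with LPS in wt. Arid5a, which protects Il6 mRNA, rose by 4.05 (SE 0.33, adjusted p 1.43e-08), and Zc3h12a, encoding the ribonuclease Regnase-1 that degrades it, by 3.70 (SE 0.28, adjusted p 7.08e-09). Zfp36l2 fell by 3.59 (SE 0.24) and Zfp36l1 by 2.59 (SE 0.29). Beside Mapkapk2, Zfp36l1 was lower under LPS in MK2-/- than in wt by 0.95 (SE 0.29, adjusted p 0.0422). Beside Mapkapk2 and Mapkapk3, Zfp36 (-1.04, adjusted p 0.0391), Zfp36l1 (-1.04, adjusted p 0.0149) and Zfp36l2 (-0.90, adjusted p 0.0107) were below wt in MK2/3-/-. The LPS response of Mapkapk3 was lower in MK2/3-/- than in wt by 2.14 (SE 0.34, adjusted p 0.0168) and than in MK2-/- by 2.61 (SE 0.33, adjusted p 0.00415). Without Mapkapk2 and Mapkapk3, the lists held 19 calls between MK2/3-/- and wt under LPS, of which 8 held on leaving out any single array, as did 0 of 3 between MK2-/- and wt and 9 of 10 between the knockouts. By the methods' t-test after adjustment none of these 19, 3 and 10 calls was made, and with only the groups compared 12, 3 and 4 of them ended, among them Lcn2, Vegfa and Mcl1 between MK2/3-/- and wt. Leaving out wt LPS replicate 1 ended the calls of Clcf1, Adam17, Ptprt, Lcn2, Vegfa, Zfp36l1 and Zfp36l2 between MK2/3-/- and wt, replicate 2 those of Il31ra, Pias3, Lcn2, Mcl1, Zfp36 and Zfp36l1, and replicate 3 those of Clcf1, Il31ra, Adam17, Pias3, Ptprt, Vegfa and Zfp36. Leaving out a MK2/3-/- LPS array ended the calls of Clcf1, Adam17 and Pias3 (replicates 1 and 2), Il31ra and Vegfa (replicates 1, 2 and 3), Lcn2 (replicate 1), Ptprt (replicates 3 and 4) and Zfp36 (replicates 1, 3 and 4). The Il31ra call also ended without some medium arrays. Between MK2-/- and wt, the Il4ra call ended without wt LPS replicate 1 (-0.89, adjusted p 0.0692), and those of Il10 and Zfp36l1 without any of 9 arrays each (adjusted p 0.0503 to 0.137 and 0.0504 to 0.144).

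The genes whose signal followed that of a member most closely over the 22 arrays, which LPS splits into high and low arrays for most of them, differed between members. Il6 was followed by Hdc, which encodes the histamine-forming enzyme, with a Pearson r of 0.993, by Il1a and by Gfi1. Osm was followed by Lgals9 (0.991), Nlrp3 and Lacc1, and Stat3 by Tmem184b (0.992), Sp100 and Daxx. The falling Il6ra was followed by Bin2 (0.982), Xpc and Iffo1, Il6st by Dok1 (0.951) and Rell1, and Lifr by Man2a2 (0.924), Cped1 and Map4k1. Osmr was followed by Sod3 (0.947), an extracellular superoxide dismutase, the collagen chain Col5a3 and Plac8. Il11 was followed by Hspg2 (0.895), the basement membrane proteoglycan perlecan, Mylk and Nradd, and Lif, over 21 arrays, by Rspo3 (0.883), Rgs16 and B4galt3.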

How the data were processed

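RNA of the 22 BMDM cultures was labelled with Cy3 by the authors and hybridised to Agilent arrays of a single colour. The deposited scanner files give a processed intensity per spot, background-corrected and detrended by Feature Extraction 11.0.1.1. A deposited table of log2 values, which the authors had quantile normalised and centred per probe, followed the values computed here with r of 0.993 to 0.999 per array. Of 62976 spots per array, 3671 controls were left out and outlier spots (115 to 2927 per array) were set to missing. No spot was saturated, and 61.7% to 83% were well above background. The number of arrays limits the precision. Log2 intensities were quantile normalised in limma 3.58.1 (R 4.3.3) and averaged per probe. Probes with an NCBI accession entered if called well above background on 3 arrays or more, and the brightest represented its gene. Groups came from the sample labels. A model with 6 group means was fitted to all arrays with eBayes, two-sided, with Benjamini-Hochberg adjustment over 22384 genes at 0.05, and was tested on simulated data. Alternatives covered scaling, background correction (normexp with offset 50 on the median spot intensity, since no mean intensity was used here), filters, probe choice, the methods' t-test, array weights, robust eBayes, replicate blocks and left-out arrays.

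From the lists, genes called between genotypes under LPS or in an interaction were named, with the 2 largest called rises and falls with LPS in wt. The 3 genes of highest Pearson r with each member over the arrays were named, of which 1 is not reported here. Members and lists were chosen with earlier results of these data known. The methods describe the experiments as independent, and mouse ages differ between some arrays of a group. Gene names came from RefSeq tables of GRCm38.p6.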

Additional observations from a re-analysis of the deposited data

Results flagged for a closer look

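Within groups of 4 arrays, 35 combinations of member and group were examined for an array far from the others, and 2 were found, where chance gives about 1 in 20. Il11 on MK2-/- LPS replicate 3 had a log2 signal of 7.152, with the nearest other array at 7.595. Osm on MK2/3-/- LPS replicate 4 had a log2 signal of 10.50, with the nearest other array at 11.34. The first is also an array of low Y-linked signal, and the second is the array of its group with the highest Osmr and Col1a1 signals.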

How the results depend on the processing

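Of 1674 comparisons of a member's difference under another setting, 33 lost the call, 15 gained it, 1 called difference reversed and 1625 stayed on their side of the threshold, of which 29 uncalled ones changed sign. On leaving out single arrays, 41 of 2376 lost the call, 8 gained it and 53 uncalled ones changed sign. The reversals were Lifr in MK2/3-/- with LPS under the probe of largest rise (0.0752) and, in the lists, Grb2 (0.40) and Mcl1 (0.89) in wt with LPS and Ptprt in MK2/3-/- against wt under LPS (0.52) under that probe, and Mcl1 in wt (0.35) and Grb2 in MK2-/- (0.0234) with LPS under 75th percentile scaling. The cause was not tested.

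Counts of members called moved as follows. With LPS in wt (8), the adjusted t-test gave 4 and single arrays 5 to 8. For MK2-/- against wt under LPS (1), the adjusted t-test and the fit of only the groups compared gave 0, and single arrays 0 to 1. For MK2/3-/- against wt under LPS (3), the adjusted t-test gave 0, the fit of only the groups compared 1, and single arrays 2 to 5. For MK2/3-/- against MK2-/- under LPS (1), normexp, both forms of the t-test, the fit of only the groups compared, array weights and leaving out the arrays of low Y-linked signal gave 0, and single arrays 0 to 1. In medium, MK2-/- against wt (1) gave 0 by the adjusted t-test and the fit of only the groups compared and 2 by the unadjusted t-test. MK2/3-/- against wt in medium (0) gave 1 with 75th percentile scaling, the stricter filter, the unadjusted t-test and array weights, and 0 to 1 with single arrays. MK2/3-/- against MK2-/- in medium (0) gave 1 by the unadjusted t-test. The interaction of MK2/3-/- against wt (0) gave 1 with array weights and 0 to 1 with single arrays. The t-test was not run for interactions. Over all genes, calls between MK2-/- and wt under LPS were 2592, but 546 by the adjusted and 5911 by the unadjusted t-test, 1698 with only the groups compared, 4753 with 75th percentile scaling and 6417 with array weights. Those between MK2/3-/- and wt under LPS were 5281, but 62 by the adjusted t-test, 1464 with only the groups compared and 8196 with 75th percentile scaling, and those between the knockouts were 3031, but 719 and 1294 by the former settings. In medium, 75th percentile scaling gave 4899 instead of 1974 (MK2-/- against wt) and 4270 instead of 452 (MK2/3-/- against wt), and array weights gave 1861 instead of 632 (between the knockouts). Interactions gave 0, 152 and 15, but 96, 1170 and 138 with array weights.

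Replicate numbers were not shown to pair the arrays. Of 10 LPS and medium pairs with the same number, 7 had deviations correlated above 0.1 (range -0.0859 to 0.362), as had 7 of 10 pairs with the same letter (-0.0859 to 0.419). With the replicate number or letter as a block (consensus correlation 0.117 and 0.144), the counts of members called were 8, 7 and 6 with LPS in wt, MK2-/- and MK2/3-/-, and 1, 3 and 1 between genotypes under LPS, as without the block, while calls over all genes in the interaction of MK2/3-/- against wt rose from 152 to 351 (number) and 387 (letter).

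Under 75th percentile scaling the share of calls over all genes that were higher moved from 44.2% to 60.5%, 39.2% to 53.6% and 42% to 54.1% with LPS in wt, MK2-/- and MK2/3-/-. Under LPS it moved from 39% to 63.7%, 40.7% to 57.3% and 57.1% to 68.6%, and in medium from 64.7% to 84%, 74.1% to 90.1% and 70.7% to 89.5%, for MK2-/- against wt, MK2/3-/- against wt and MK2/3-/- against MK2-/-. Dim signals limit Lif, Osmr and 2 Lifr probes, each not well above background on 1 to 7 arrays.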
